A study of Mus musculus with 8 samples.

Results

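Glutamate receptor genes were examined in the embryonic brain cortex of mice, on 4 arrays labelled as overexpressing VEGF and 4 wild-type control arrays. The set was a list of 30 genes that encode ionotropic and metabotropic glutamate receptors and the auxiliary subunits of AMPA and kainate receptors. A gene counted as measured if the platform annotation gave it at least 1 probe set naming that gene alone. Of the 30 genes 29 were measured, among 19938 genes on the array, each by 1 probe set except Cacng2 with 2. Grin1, which encodes the obligate subunit of NMDA receptors, had no such probe set and is not analysed here.

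The VEGF-labelled embryos were GFAP-tTA: TetO-VEGF-A164 bitransgenics, which combine a tetracycline transactivator expressed from the GFAP promoter with a VEGF-A transgene under its control, while the control embryos are described as wild type without TetO-VEGF-A164. The sources used here do not say whether the controls carried the transactivator. All embryos were taken at embryonic day 16 and shared a mixed strain background. VEGF-A and the transgene insertions cannot be told apart, nor can any difference between the groups within that mixed background. GFAP is a gene of astrocytes and some neural stem cells. The labels do not say whether an array holds RNA of 1 embryo or of a pool, or which litters were used. The p-values thus cover only the spread among the 8 arrays, which may be partly technical.

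Glutamate is the main excitatory transmitter of the cortex. Ionotropic receptors are ion channels built of subunits, with fast AMPA receptors, calcium-permeable NMDA receptors whose pore is blocked by magnesium in a voltage-dependent way, kainate receptors that also act presynaptically, and delta receptors that organise synapses. Metabotropic receptors act through G proteins. TARPs and Neto proteins are transmembrane partners that carry AMPA and kainate receptors to the membrane and slow or speed their gating. In the embryonic cortex, before most synapses exist, these receptors are found on migrating neurons, on progenitors and on glial precursors.

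The deposited values were taken as log2, and for each probe set the median of the 8 arrays is 0. A value is thus a level relative to that median. Absolute levels are lost, so it is unknown which of the receptors were expressed above background, and levels of different genes cannot be set against each other. The presence of cortical markers could not be checked for the same reason. In whole tissue, fewer cells of a type and less RNA per cell cannot be told apart.

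The arrays differed in ways that touch every gene below. Vegfa itself averaged 0.01 ± 0.06 on the VEGF-labelled arrays and -0.04 ± 0.08 on the control arrays (SD, n = 4 each), a difference of 0.05 (limma, adjusted p = 0.748), so it does not check the labels. Gfap, whose promoter drives the transactivator, differed by -0.08 with an SE of 0.0534. Xist, the RNA of the inactive X chromosome, was at 5.42 and 5.11 in VEGF 2 and VEGF 3 and at 5.27 in control 3, and at or below 0.14 on the other 5 arrays, a mixture of female and male patterns in both groups. VEGF 3 stood apart from the other arrays in the glutamate receptor genes. All 29 measured genes were below their own median there, against 58.0% of all genes on that array, and in 22 of the 29 it was the lowest of the 8 arrays, against 22.2% of all genes. VEGF 4 had 25 of 29 below the median, while VEGF 1 had 8 and VEGF 2 had 11. Among the control arrays, control 3 had 20 below the median, control 4 had 12, control 2 had 6 and control 1 had 4. Results are therefore also given without VEGF 3. This array was picked from the values of these same genes, so leaving it out moves most differences upward by construction. The values without VEGF 3 are thus description only. Over all probe sets the interquartile range was widest in VEGF 2, at 0.142, against 0.102 in VEGF 3.

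**Figure D1:**
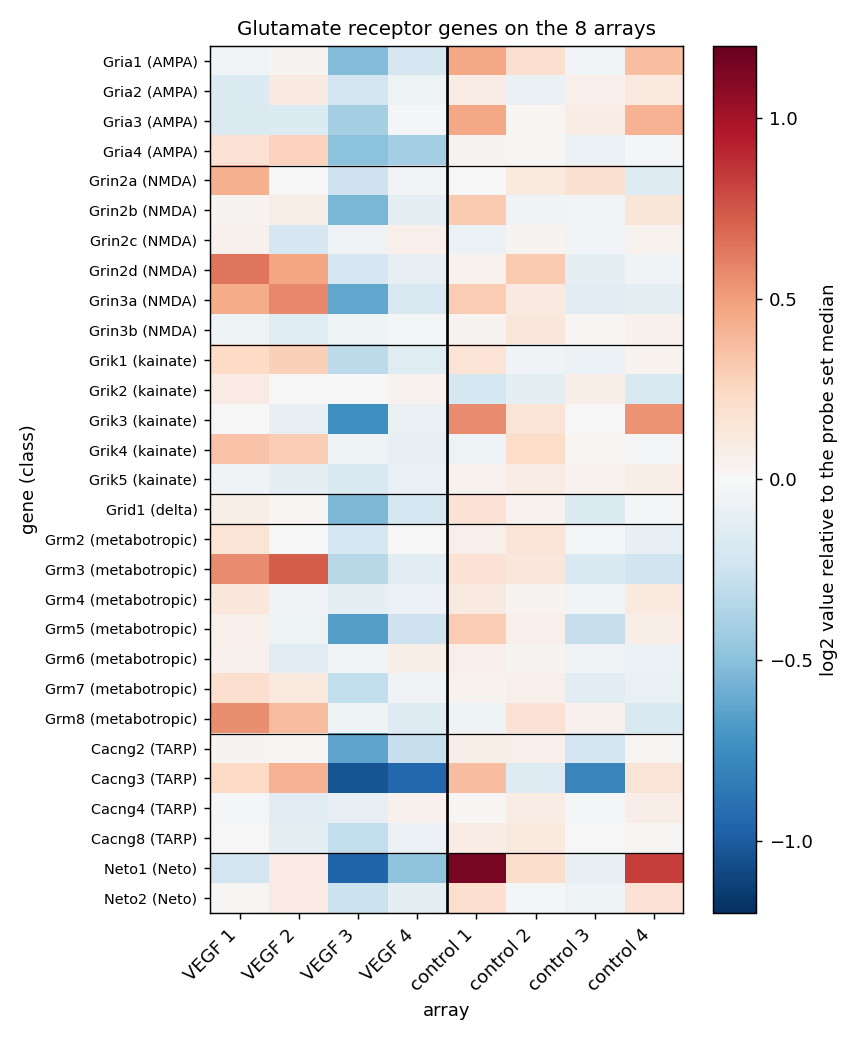
The heat map shows the log2 value of the 29 measured genes (rows, by receptor class) relative to the probe set median on the 4 VEGF-labelled arrays (left of the line) and the 4 control arrays (right). The column of VEGF 3 is below 0 in all 29 genes, and the widest values belong to Neto1 and Cacng3.

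None of the 29 genes passed the test over all genes. The lowest adjusted p among them was 0.243 (limma, Benjamini-Hochberg over 19938 genes), and with 0% of all genes called, the whole array gave no call either. The methods' t-test also passed 0 of the 29 after adjustment, with 7 at an unadjusted p under 0.05. Of the 29 genes 21 (72.4%) were lower in the VEGF-labelled arrays and 8 were higher, against 56.7% lower among all genes. Their median difference, VEGF minus control, was -0.10, against -0.01 over all genes. At an unadjusted p under 0.05 there were 7 lower genes (24.1% of 29), Gria1, Gria3, Grin3b, Grik3, Grik5, Cacng8 and Neto1, against a background of 7.84% of all genes, and 0 higher genes against 4.62%. The VEGF-labelled arrays lay wholly below the control arrays in 4 of the 29 genes (13.8%), Gria3, Grin3b, Grik3 and Grik5, against 4.71% of all genes, and wholly above in 0, against 2.13%. Without VEGF 3 the median difference of the 29 genes was -0.05, 16 were lower and 13 higher, and the same 7 genes were lower at an unadjusted p under 0.05, against 6.07% of all genes in that fit. The set was chosen with earlier results of these data known, so its shares beside those of all genes are description and no test of the set.

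**Figure D2:**
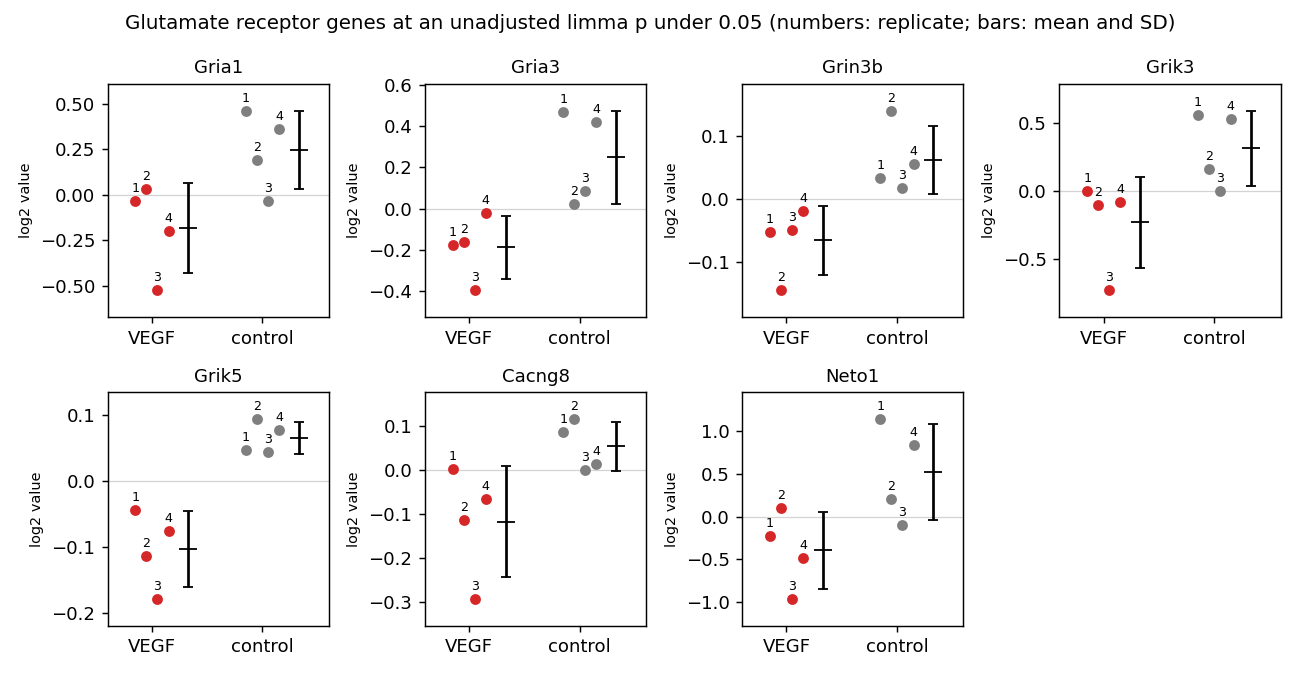
Log2 values relative to the probe set median are plotted for the 7 genes at an unadjusted limma p under 0.05, with VEGF-labelled arrays left, control arrays right, the replicate number at each point, and bars for the mean and SD (n = 4 each). The y axes differ between panels. The groups do not overlap in Gria3, Grin3b, Grik3 and Grik5 and overlap in Gria1, Cacng8 and Neto1.

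AMPA receptors are tetramers of the subunits encoded by Gria1 to Gria4, and all 4 genes were lower, with a median difference of -0.28, though without VEGF 3 the median was -0.20 with 3 of 4 lower. Gria3 was at -0.17, -0.16, -0.39 and -0.02 in VEGF 1 to VEGF 4 and at 0.47, 0.02, 0.09 and 0.42 in control 1 to control 4. The groups did not overlap, though VEGF 4 and control 2 lay close to each other. Gria3 differed by -0.44 with an SE of 0.115 (95% interval -0.70 to -0.18, limma unadjusted p = 0.0041, adjusted p = 0.243), a fold of 0.739 if the base is 2. Gria1, the subunit whose synaptic insertion is tied to plasticity, was at -0.03, 0.03, -0.52 and -0.20 in the VEGF-labelled arrays and at 0.46, 0.19, -0.03 and 0.36 in the control arrays. Control 3 lay among the VEGF-labelled arrays, and the other 3 control arrays lay above all of them. The difference was -0.43 with an SE of 0.136 (limma, adjusted p = 0.283), and -0.31 without VEGF 3.

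Gria2, whose edited subunit makes AMPA receptors impermeable to calcium, differed by less, -0.13 with an SE of 0.0752 (limma, adjusted p = 0.524), and by -0.09 without VEGF 3. Its VEGF-labelled arrays ranged between -0.23 and 0.11 and its control arrays between -0.08 and 0.12, so the groups overlapped. Gria4 had a different distribution. It stood at 0.17 and 0.28 in VEGF 1 and VEGF 2 and at -0.49 and -0.41 in VEGF 3 and VEGF 4, on both sides of control arrays that lay between -0.07 and 0.03. Its difference of -0.10 (SE 0.163) was 0.02 without VEGF 3.

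NMDA receptors combine the Grin1 product with GluN2 or GluN3 subunits. Of the 6 measured genes 3 were higher and 3 lower, with a median of -0.01, or 0.04 without VEGF 3. Grin3b, one of the glycine-binding GluN3 subunits, was at -0.05, -0.14, -0.05 and -0.02 in the VEGF-labelled arrays and at 0.03, 0.14, 0.02 and 0.05 in the control arrays. The groups did not overlap, but the difference was small, -0.13 with an SE of 0.0421 (limma, adjusted p = 0.291). The largest absolute difference of the class belonged to Grin2b, the GluN2 subunit that predominates before birth. It differed by -0.24 with an SE of 0.137 (limma, adjusted p = 0.538), with VEGF 3 at -0.55 and the other VEGF-labelled arrays between -0.11 and 0.08, against -0.04 to 0.32 in the control arrays. Without VEGF 3 that difference was -0.10.

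Grin2d and Grin3a, subunits of early development, split the VEGF-labelled arrays. Grin2d was at 0.64 and 0.47 in VEGF 1 and VEGF 2 but at -0.20 and -0.10 in VEGF 3 and VEGF 4, and at 0.04, 0.32, -0.12 and -0.04 in the control arrays. Grin3a was at 0.44 and 0.58 in VEGF 1 and VEGF 2, at -0.62 and -0.19 in VEGF 3 and VEGF 4, and between -0.12 and 0.31 in the control arrays. In both genes VEGF 1 and VEGF 2 were the highest of all 8 arrays and VEGF 3 was the lowest. The differences between the groups, 0.15 with an SE of 0.187 for Grin2d and 0.01 with an SE of 0.244 for Grin3a, were smaller than their errors (limma, adjusted p = 0.819 and 0.995). Both moved with single arrays, to 0.29 for Grin2d and 0.23 for Grin3a without VEGF 3, and to 0.01 for Grin2d without VEGF 1 and -0.17 for Grin3a without VEGF 2. Grin2a, whose expression rises after birth, differed by 0.003 (SE 0.133), with VEGF 1 at 0.43 above all other arrays, by 0.10 without VEGF 3 and by -0.13 without VEGF 1. Grin2c, best known from the cerebellum, differed by -0.03 (SE 0.0613).

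Kainate receptors are built of the subunits encoded by Grik1 to Grik5, and their genes included the widest contrast among the ionotropic subunits. Of the 5 genes 3 were lower and 2 higher, with a median of -0.01. Without VEGF 3 the median was 0.11, with 2 lower and 3 higher. Grik3, a subunit able to form channels by itself, was at -0.003, -0.10, -0.73 and -0.08 in the VEGF-labelled arrays and at 0.56, 0.16, 0.003 and 0.54 in the control arrays. The groups did not overlap, but VEGF 1 and control 3 were almost equal. The difference was -0.55 with an SE of 0.179 (limma, adjusted p = 0.289), a fold of 0.685 if the base is 2, and -0.38 without VEGF 3. Grik5, a high-affinity subunit that needs a partner to form a channel, had the smallest p of all 29 genes. It was at -0.04, -0.11, -0.18 and -0.08 in the VEGF-labelled arrays and at 0.05, 0.09, 0.04 and 0.08 in the control arrays. The control arrays lay close together, and the difference was -0.17 with an SE of 0.0380 (limma, unadjusted p = 0.0016, adjusted p = 0.243) and -0.14 without VEGF 3.

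The other 3 kainate receptor genes did not separate the groups. Grik2, a subunit with a long-studied role in hippocampal circuits, had the smallest unadjusted p of the 8 higher genes. It stood at 0.10, 0.01, -0.01 and 0.04 in the VEGF-labelled arrays and at -0.21, -0.11, 0.08 and -0.18 in the control arrays, and control 3 was within the range of the VEGF-labelled arrays. Its difference was 0.14 with an SE of 0.0635 (limma, unadjusted p = 0.057, adjusted p = 0.420), and it was the higher gene counted at an unadjusted p under 0.05 without control 3, with 0.20. Grik4, the other high-affinity subunit, differed by 0.08 (SE 0.110) and Grik1 by -0.01 (SE 0.129). In both, VEGF 1 and VEGF 2 were above all control arrays, with 0.34 and 0.30 for Grik4 and 0.24 and 0.29 for Grik1, while VEGF 4 was below all control arrays. Without VEGF 3 they differed by 0.14 and 0.11, and without VEGF 1 by 0.01 and -0.08.

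Promoter sequences are shown for Grik3 and Grik5, the kainate receptor genes whose groups did not overlap, and for Grik2, the higher gene of the class with the smallest p. They are from RefSeq on GRCm38.p6, 250 bases before to 50 bases after the gene start, 5′ to 3′ on the gene's strand. Capitals mark the GC box GGGCGG, a motif of promoters rich in CG dinucleotides, on either strand. The Grik3 window is chr4:125490446-125490745 on the plus strand, that of Grik5 chr7:25072320-25072619 on the minus strand and that of Grik2 chr10:49788705-49789004 on the minus strand.
Grik3: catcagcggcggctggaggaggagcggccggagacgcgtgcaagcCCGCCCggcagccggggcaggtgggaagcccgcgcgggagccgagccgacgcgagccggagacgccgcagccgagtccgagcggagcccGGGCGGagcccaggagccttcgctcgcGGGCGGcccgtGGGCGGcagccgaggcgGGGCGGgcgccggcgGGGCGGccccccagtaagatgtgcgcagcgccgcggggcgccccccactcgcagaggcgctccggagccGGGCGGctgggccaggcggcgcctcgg
Grik5: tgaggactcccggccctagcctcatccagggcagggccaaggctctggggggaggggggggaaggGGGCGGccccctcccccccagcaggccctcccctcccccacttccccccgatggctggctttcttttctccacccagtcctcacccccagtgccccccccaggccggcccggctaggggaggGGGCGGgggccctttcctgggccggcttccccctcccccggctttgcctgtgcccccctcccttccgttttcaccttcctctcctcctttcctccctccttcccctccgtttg
Grik2: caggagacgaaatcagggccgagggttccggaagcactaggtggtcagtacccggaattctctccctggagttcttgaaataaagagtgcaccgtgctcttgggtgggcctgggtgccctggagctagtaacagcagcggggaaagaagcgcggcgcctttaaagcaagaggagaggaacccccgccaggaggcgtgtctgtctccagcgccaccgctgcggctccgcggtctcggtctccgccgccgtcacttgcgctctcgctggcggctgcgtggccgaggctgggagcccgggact

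The GC box occurred 7 times in the Grik3 window, 2 times in that of Grik5 and 0 times in that of Grik2. The GC content of these windows was 82%, 72% and 64.7%, against a median of 61% in the windows of the set and 52.7% in all windows. These windows were picked by group difference, and a link of the box to direction was not tested. It was also found in Grik4, Grm3, Grm7 and Grm8, which were higher, in Grin2c, Grm2 and Neto2, which were lower, and in Grin1. Of the 30 genes 19 had at least 1 promoter window in the table, with 23 windows in all, and 11 of the 23 held a GC box, against 35.7% of all 32851 windows. The E-box CAGNTG was in 10 of the 23, against 51.4% of all windows. The cyclic AMP response element TGACGTCA was in 0 of the 23, against 1.79%. TTCAGCACC, the left part of the binding motif of the neuronal repressor REST, was in 1 of the 23, that of Grm2, against 0.371%. Both strands were searched and each motif was counted separately, so matches may share bases. A match describes letters in these windows and is not a binding site.

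Grid1, a delta receptor that binds cerebellins and links to presynaptic neurexins, differed by -0.17 with an SE of 0.129 (limma, adjusted p = 0.660). It was at 0.07, 0.03, -0.53 and -0.21 in the VEGF-labelled arrays and at 0.17, 0.04, -0.16 and -0.03 in the control arrays. The groups overlapped, with VEGF 3 the lowest array, and without it the difference was -0.05.

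Metabotropic receptors gave no gene at an unadjusted p under 0.05, with 3 of 7 higher, 4 lower and a median of -0.01, and without VEGF 3 with 5 higher, 2 lower and a median of 0.03. Of the group I receptors, which couple to phospholipase C, Grm5 had the smallest p of the class. It was at 0.06, -0.06, -0.66 and -0.25 in the VEGF-labelled arrays and at 0.30, 0.06, -0.28 and 0.08 in the control arrays. The ranges overlapped, and the difference of -0.27 with an SE of 0.163 (limma, adjusted p = 0.568) was -0.12 without VEGF 3.

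The group II receptors Grm2 and Grm3 lower cyclic AMP. Grm3, found on glia as well as neurons, was at 0.57, 0.72, -0.34 and -0.14 in the VEGF-labelled arrays and at 0.18, 0.14, -0.18 and -0.24 in the control arrays. VEGF 1 and VEGF 2 were its highest arrays and VEGF 3 its lowest. The difference of 0.23 was as large as its SE of 0.230 (limma, adjusted p = 0.762), and it was 0.41 without VEGF 3 and 0.06 without VEGF 2. Grm2 differed by -0.04 (SE 0.0814), and by 0.03 without VEGF 3. Among the group III receptors, which are mostly presynaptic, Grm8 was at 0.56, 0.38, -0.06 and -0.16 in the VEGF-labelled arrays and between -0.18 and 0.17 in the control arrays, a difference of 0.18 with an SE of 0.154. It was 0.26 without VEGF 3 and 0.06 without VEGF 1. Grm7 differed by 0.03 (SE 0.10) and by 0.13 without VEGF 3, Grm4 by -0.08 (SE 0.0590) and Grm6, known from the bipolar cells of the retina, by -0.01 (SE 0.0529).

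TARPs, the auxiliary subunits of AMPA receptors, were lower in all 4 genes, with a median of -0.18, though without VEGF 3 the median was -0.06 with 3 of 4 lower. Cacng8 had the smallest p, at 0.001, -0.11, -0.29 and -0.07 in the VEGF-labelled arrays and 0.09, 0.11, -0.001 and 0.01 in the control arrays. The groups overlapped only through VEGF 1, which lay just above control 3. The difference was -0.17 with an SE of 0.0624 (limma, adjusted p = 0.333), and -0.11 without VEGF 3. Cacng2, which encodes stargazin, differed by -0.19 (SE 0.142), with -0.19 and -0.20 for its 2 probe sets, but by -0.05 without VEGF 3. Cacng4 differed by -0.09 (SE 0.0491).

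Cacng3, a TARP of cortical neurons, varied widely within each group. It was at 0.24, 0.41, -1.04 and -0.94 in the VEGF-labelled arrays and at 0.37, -0.15, -0.79 and 0.15 in the control arrays. VEGF 3, VEGF 4 and control 3 formed the low end, and the difference of -0.23 was smaller than its SE of 0.373. Without VEGF 3 it was 0.01.

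Neto1, an auxiliary subunit of kainate receptors that also associates with NMDA receptors, had the largest difference of the 29 genes. It was at -0.23, 0.10, -0.96 and -0.49 in the VEGF-labelled arrays and at 1.14, 0.21, -0.10 and 0.83 in the control arrays. VEGF 2 lay above control 3, so the groups overlapped, and control 1 and control 4 were far above all other arrays. The difference was -0.92 with an SE of 0.293 (95% interval -1.58 to -0.25, limma, adjusted p = 0.283), a fold of 0.530 if the base is 2. Without VEGF 3 it was -0.73, and without control 1 it was -0.71. Control 1 and control 4 were also the highest arrays in Gria1, Gria3 and Grik3. Gria3 differed by -0.36 without control 1 and by -0.37 without VEGF 3. Without control 1 the difference was -0.35 in Gria1 and -0.46 in Grik3, smaller moves than without VEGF 3. Neto2, the relative of Neto1, differed by -0.14 (SE 0.0879), with the groups overlapping, and by -0.07 without VEGF 3.

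**Figure D3:**
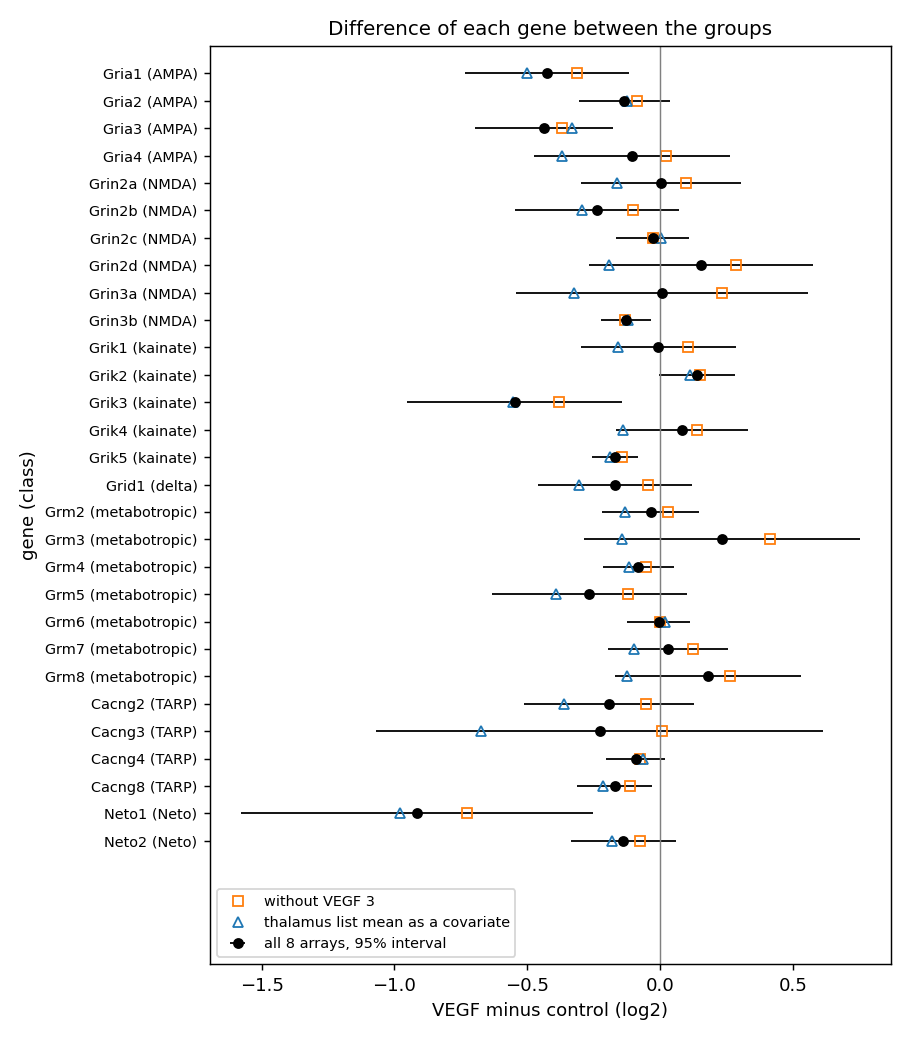
Filled points give the difference, VEGF minus control on the log2 scale, of each of the 29 genes with its 95% interval from limma, open squares the difference without VEGF 3, and open triangles the difference with the mean of the thalamus list as a covariate. Intervals lie wholly below 0 in the 7 genes at an unadjusted p under 0.05, which restates that test. With the covariate 26 of the 29 triangles are below 0, a count that carries the built-in downward shift described with the thalamus list.

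The spread inside the VEGF-labelled group was wider than in control for most of these genes. The SD was larger in the VEGF-labelled arrays in 25 of 29 genes (86.2%), against 68.5% of all genes. The median SD of the 29 genes was 0.248 in the VEGF-labelled arrays and 0.134 in the control arrays, where all genes had 0.0803 and 0.0594. Differences beyond 0.2 in either direction occurred in 8 of the 29 genes (27.6%), against 5.60% of all genes. Genes that vary more inside the groups pass a fixed limit more easily, so these shares are not alike.

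Markers of cell types and neighbouring tissues moved across the same arrays. Counts of lower genes in the lists below stand beside 56.7% lower among all genes. The thalamus list (12 of 12 genes measured) had a mean of 0.67, 0.64, 0.11 and -0.21 in VEGF 1 to VEGF 4 and of -0.32, 0.25, -0.16 and -0.30 in control 1 to control 4. VEGF 1 and VEGF 2, its highest arrays, were also the highest for 8 of the 29 receptor genes (27.6%), against 7.25% of all genes. These 8 were Gria4, Grin2d, Grin3a, Grik1, Grik4, Grm3, Grm7 and Grm8. In a fit that held the thalamus list mean as a covariate they differed by -0.37, -0.19, -0.32, -0.16, -0.14, -0.14, -0.10 and -0.12 in that order. These genes share their highest arrays with the covariate, so a downward shift follows from how they were picked and supports nothing, and the part of thalamic tissue was not tested. In the same fit 9 of the 29 genes were lower at an unadjusted p under 0.05, against 7.19% of all genes, and 0 passed the adjusted test. They included 6 of the 7 lower genes, while Grin3b differed by -0.12 with the covariate (limma, unadjusted p = 0.055, adjusted p = 0.485), against -0.13 without it. The median difference of the 29 genes was -0.18. Gria4 and Grik4, of the 8 genes picked above, were among the 9, and the median takes in all 8. The count and the median thus carry part of that built-in shift and are given as description only.

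The interneuron and ventral forebrain list (17 of 18 measured) had all 17 genes lower, with a mean of -0.16, -0.06, -0.77 and -0.26 in the VEGF-labelled arrays and 0.37, 0.20, 0.01 and 0.26 in the control arrays. The striatum list (10 of 12 measured) had 9 lower, with means between -0.62 and 0.03 in the VEGF-labelled arrays and between -0.004 and 0.29 in the control arrays. In both lists VEGF 3 was the lowest array, as it was in 22 of the receptor genes. Projection neuron markers (16 of 18 measured, 13 lower) averaged between -0.25 and -0.01 in the VEGF-labelled arrays, against 0.01 to 0.20 in control. Oligodendrocyte precursor markers (7 of 8 measured, 6 lower) averaged between -0.28 and 0.18 in the VEGF-labelled arrays, against -0.10 to 0.17 in control, with VEGF 3 the lowest. No member of these lists passed the adjusted test, and the part of these cell types in the receptor differences was not tested.

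Among the other lists, markers of cycling cells (11 of 12 measured) were all higher, with means between -0.05 and 0.26 in the VEGF-labelled arrays, VEGF 3 the highest, against -0.22 to 0.05 in control. Radial glia markers (15 of 15 measured, 10 higher) averaged between 0.01 and 0.10 in the VEGF-labelled arrays, against -0.11 to 0.01 in control. Red cell markers (8 of 10 measured, 8 higher) averaged between -0.02 and 0.58, against -0.14 and -0.01. Astrocyte markers (9 of 9 measured, 5 lower) averaged between -0.13 and 0.01 in the VEGF-labelled arrays, against -0.02 to 0.11 in control, and endothelial markers (10 of 10 measured, 7 lower) between -0.25 and 0.06, against -0.18 to 0.10. VEGF 3 was the lowest array in both lists. The astrocyte genes went both ways, with Aldh1l1 at -0.68 and the connexin Gja1 at 0.25, each without overlap between the groups (limma, adjusted p = 0.243 for both). Microglia and macrophage markers (10 of 10 measured, 7 higher) averaged between -0.05 and 0.13, against -0.15 to 0.10.

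**Figure D4:**
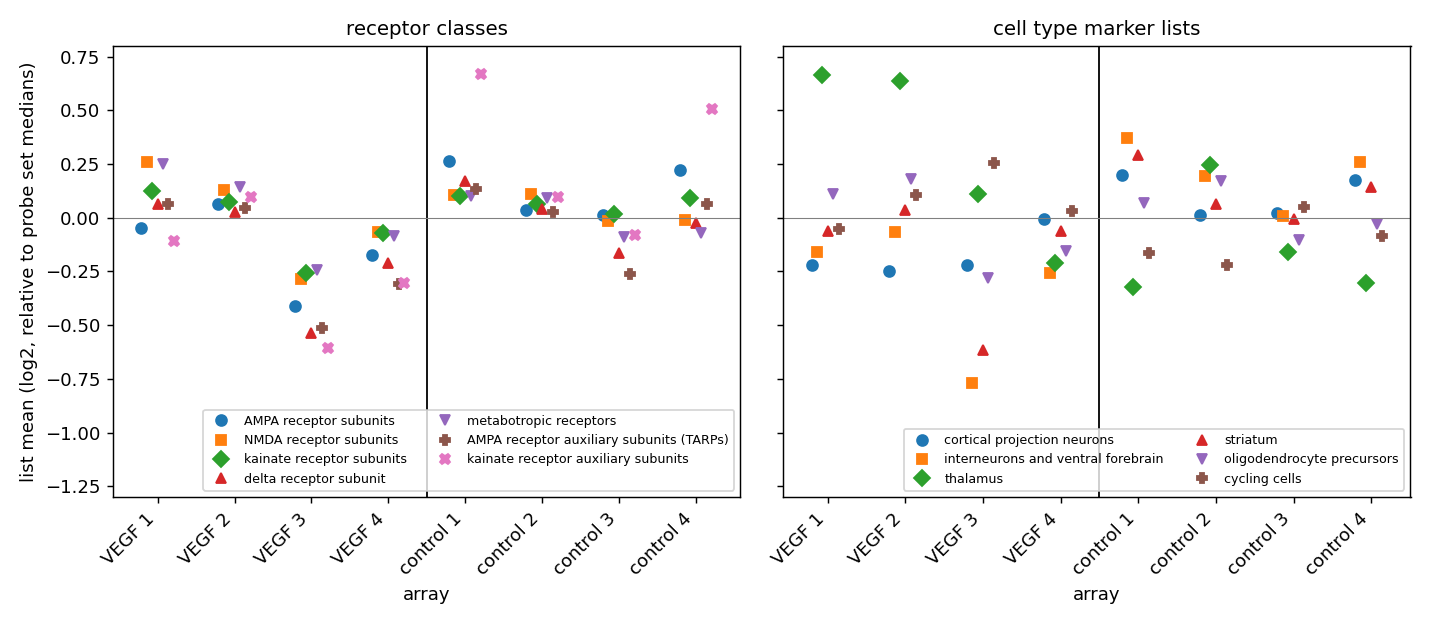
The mean log2 value of each receptor class (left) and of 6 cell type marker lists (right), relative to the probe set medians, is plotted for the 4 VEGF-labelled arrays (left of each line) and the 4 control arrays. VEGF 3 is the lowest array for all receptor classes and for the interneuron and striatum lists, and VEGF 1 and VEGF 2 are the highest for the thalamus list.

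Genes that work around glutamate receptors were read from the same fit, and none of them passed the adjusted test. In the postsynaptic scaffold, which anchors the receptors, 12 of 17 measured genes were lower (70.6%, against 56.7% of all genes), with a median of -0.12. In this list 4 were lower at an unadjusted p under 0.05, against 7.84% of all genes. These 4 were the scaffold adaptors Dlgap2 at -0.24, Dlgap4 at -0.19 and Dlgap1 at -0.26, and Dlg4, which encodes PSD-95, at -0.18 (limma, adjusted p between 0.243 and 0.293). The list mean was -0.02, -0.02, -0.18 and -0.04 in the VEGF-labelled arrays and 0.09, 0.02, -0.02 and 0.03 in the control arrays. The lowest control array, control 3, stood just above the highest VEGF-labelled array, VEGF 1.

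Among other AMPA receptor partners and trafficking proteins, 13 of 15 measured genes were lower (86.7%, against 56.7% of all genes), with a median of -0.10. Of these 4 were lower at an unadjusted p under 0.05, against 7.84% of all genes. They were the pentraxin Nptx1, which clusters AMPA receptors, at -0.26, the cornichon Cnih3, an auxiliary subunit, at -0.35, the assembly factor Frrs1l at -0.11 and the scaffold Grip2 at -0.16. Signalling genes below the receptors had 9 of 14 lower (64.3%, near the 56.7% of all genes) and a median of -0.10. Of these the exchange factor Rasgrf1 differed by -0.28, the kinase Camk2a by -0.35, the kinase Prkca by -0.16 and the calcineurin subunit Ppp3ca by -0.14. The first 3 were lower at an unadjusted limma p under 0.05, against 7.84% of all genes.

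Genes of glutamate supply, release and uptake had 7 of 13 lower (53.85%, against 56.7% of all genes) and 6 higher, with a median of -0.02. At an unadjusted p under 0.05 there were 0 in either direction, against 7.84% lower and 4.62% higher among all genes. The vesicular glutamate transporter Slc17a7 differed by -0.26 (SE 0.155), the neuronal uptake transporter Slc1a1 by -0.15, the glial uptake transporter Slc1a2 by 0.20 (SE 0.119) and the amino acid transporter Slc38a2 by -0.06.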

How the data were processed

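RNA of embryonic cortex was hybridised to 8 Affymetrix whole-transcript arrays after labelling of 120 ng of total RNA, per the labels' protocols. Affymetrix Expression Console and build mm8 are named in the submitters' processing notes, and the series text names GeneSpring and a plain unpaired t-test. The sources used here do not state how signals were background-corrected and summarised. The authors deposited a table of 28853 probe sets, read as log2 values from their range, with each probe set centred on its median within 5e-07. No source states the base.

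Names came from the platform annotation (21789 with 1 symbol, 1621 with several, 5443 unnamed here) and updated by Entrez identifier to RefSeq symbols (21698 found). Probe sets naming more than 1 gene were not used, and those of a gene were averaged. Groups and replicate numbers came from the titles. All 19938 genes were fitted with limma 3.58.1 in R 4.3.3 (lmFit and eBayes, no trend, no covariates), with Benjamini-Hochberg adjustment at 0.05. The fit was tested on simulated data. The members and lists were chosen with earlier results of these data known. Full values were given for members at an unadjusted p under 0.05 or without overlap, for the member of smallest p in each class, and for some others whose arrays split, chosen after their values were seen. Each pathway list contributed its 4 genes of smallest p. Cell type lists are given by counts and means, with the 2 genes of smallest p that the naming rule allowed named for astrocytes only. The series text names an unpaired test, and the numbers were not taken as pairs in the main fit. Same-numbered arrays of the groups deviated from their group means with correlations of 0.05, -0.13, 0.45 and 0.30. These values do not settle whether the arrays were paired, and a fit with the replicate number as a block is given below. Precision is limited by the number of arrays, and no pair of arrays was identical.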

Additional observations from a re-analysis of the deposited data

Results flagged for a closer look

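Among the 29 genes in each of the 2 groups, 58 sets of 4 values, 1 value lay far from the other 3 of its group. Grik3 in VEGF 3 was at -0.73, against values between -0.10 and -0.003 in the other VEGF-labelled arrays, and the gap was 0.864 of the group's range, above the limit of 0.829 for 4 values. Such a flag arises by chance in about 5% of groups, so 1 among 58 is no excess. The difference of Grik3 was -0.38 without VEGF 3.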

How the results depend on the processing

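No gene of the set passed the adjusted test under any of the alternatives run, which were array weights, the replicate block, quantile normalization, centring of arrays on their medians, a prior with trend and robust fitting, each probe set alone, the methods' t-test, the thalamus list mean or Xist as a covariate, and leaving out each array. Among all genes none passed either in the alternatives fitted by gene, except without VEGF 4, where 2 were higher and 8 lower. The lowest adjusted limma p of the set was 0.134, also without VEGF 4. The count of lower genes at an unadjusted p under 0.05 was 11 with the replicate block, against 7, beside 7.90% of all genes in that fit. It was 10 with array weights (8.95% of all genes), 9 with the thalamus covariate (7.19%) and 8 with quantile normalization (7.39%), and 6 to 8 when an array was left out (5.24% to 8.35%). All 7 genes remained in that count in each alternative that tests genes except with the thalamus covariate, without control 1 and without control 2, where 6 did. The count of higher genes was 1 with arrays centred on their medians and 1 with array weights, against 0, and 0 to 1 when an array was left out. Groups without overlap numbered 4 to 7 lower and 0 to 1 higher when an array was left out, with the upper values without control 3. Fewer arrays separate more easily by chance, and the share over all genes was not counted there. These overlap counts are therefore not read as a stronger result. Between 16 and 26 of the 29 genes were lower over all alternatives, with the lowest count without VEGF 3 and the highest with the thalamus covariate. Both counts with that covariate, 9 and 26, carry the built-in downward shift described above. The count of 16 carries the upward shift that comes from picking VEGF 3 by these genes. The median difference was between -0.17 and -0.05 when an array was left out.

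Signs changed in 13 genes, and the cause was not tested. With the thalamus covariate they changed in Grin2a (-0.16), Grin2c (0.00368), Grin2d (-0.19), Grin3a (-0.32), Grik4 (-0.14), Grm3 (-0.14), Grm6 (0.0189), Grm7 (-0.10) and Grm8 (-0.12). With Xist they changed in Grin2c (0.000483), Grik1 (0.0133) and Grm6 (0.0197), with array weights in Grin2c (0.00257), Grin3a (-0.0376), Grm2 (0.0222) and Grm6 (0.0464), with quantile normalization in Grin2a (-0.00467), Grin3a (-0.0101) and Grm6 (0.0254), and with arrays centred on their medians in Grm6 (1.7e-05). When an array was left out, Gria4 ranged between -0.23 and 0.0222, Grin2a between -0.13 and 0.10, Grin2c between -0.0582 and 0.0297, Grin3a between -0.17 and 0.23, Grik1 between -0.10 and 0.11, Grm2 between -0.0941 and 0.0307, Grm6 between -0.0314 and 0.0354, Grm7 between -0.0388 and 0.13 and Cacng3 between -0.48 and 0.00878. Signal over background is unknown for every gene, since the values are centred.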
